A study of Mus musculus with 4 samples.

Results

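Irf8 and 9 other genes used as markers or regulators of dendritic cells were followed in CD4 CD8 double positive thymocytes. These came from mice in which Cre is meant to remove Ikaros, and from controls. The set comprised the transcription factor genes Irf8, Irf4 and Batf3, the surface receptor genes Itgax, Siglech, Xcr1 and Clec9a, and the secreted protein genes Cst3, Ccl17 and Ccl22. All probe sets of the array annotated to exactly 1 of these symbols were taken. This gave 11 probe sets of the 45037 on the array, for 9 of the 10 genes. Clec9a had no probe set with a single symbol, and its level was not analysed here. Irf8 and Irf4 had 2 probe sets each and the others 1 each.

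The study measured total RNA of double positive thymocytes, immature T cells of the thymus, on 4 Affymetrix mouse arrays, 1 per mouse. The Cre+ group comprised 2 Ikf/f CD4-Cre+ mice, in which Cre recombinase expressed from Cd4 control elements is meant to remove the loxP-flanked ("f") Ikaros gene, Ikzf1. The Cre- group comprised 2 Ikf/f CD4-Cre- mice, which carry the same floxed alleles without Cre. All mice were thus Ikf/f, and no mouse carried Cre without floxed alleles, so an effect of Cre alone and an effect of Ikaros loss cannot be told apart. The mice were separate animals; the labels used here give no age, sort purity or handling date.

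Dendritic cells take up, process and present antigen to T cells, and a small population resides in the thymus, where it takes part in negative selection. IRF8 is required for the cross-presenting conventional lineage, together with BATF3, and is highly expressed in plasmacytoid cells, while IRF4 serves the other conventional lineage. Both IRF genes are also used outside dendritic cells: IRF8 in B cells and macrophages and downstream of interferon, and IRF4 in lymphocytes after antigen receptor signalling. Their signal in thymocytes is therefore not a dendritic cell measurement by itself, whereas Xcr1, Siglech and Clec9a are far more restricted to dendritic cells.

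Array-wide facts were as follows. RMA log2 signals (a scale on which a difference of 1 is a doubling) had medians of 5.23 and 5.25 in the Cre+ arrays and 5.19 and 5.22 in the Cre- arrays. Ikzf1 fell by 1.53 on the log2 scale in Cre+ mice, with limma adjusted p = 0.024. This was its brighter probe set, which averaged 10.71 in Cre+ and 12.24 in Cre- arrays. The dimmer Ikzf1 probe set differed by −0.22 with overlapping groups (limma adjusted p = 0.507, each probe set tested separately). Cd4, Cd8a and Rag1, which define the double positive stage, averaged 10.42, 12.71 and 13.33 in Cre+ arrays, against 10.56, 13.02 and 13.44 in Cre- arrays. Ptcra, the gene of a surrogate receptor chain that thymocytes use before the double positive stage, went the other way, at 9.91 in Cre+ and 8.75 in Cre- arrays, a difference of 1.16 ± 0.18 (SE, limma adjusted p = 0.0540). Cd3e differed by 0.41 and Cd8b1 by −0.29. Of 10 double positive markers 0 passed the limma test over all genes. An unadjusted p under 0.05 was reached by 4, where 20.6% of all tested genes reached it. With no filter, a trended or robust prior, averaged probe sets or the sample number as a block, 1 was called. Xist read 5.09 and 5.37 in Cre+ samples 1 and 2, against 4.73 and 12.75 in Cre- samples 1 and 2. The Y-linked Kdm5d read 8.37 and 8.23 in Cre+ samples, against 8.29 and 2.86 in Cre- samples, so sex differed between the 2 Cre- mice. Both Cre+ arrays read as male and Cre- sample 2 as female. Sex was thus unbalanced between the groups, and no setting had it as a covariate. Cre+ sample 2 stood apart in granulocyte genes: S100a8 read 4.52 in Cre+ sample 1 and 8.38 in Cre+ sample 2, against 4.50 and 4.02 in Cre- samples 1 and 2.

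Each gene was tested through its brightest probe set, among 11639 genes with a mean signal of at least 4.76, the 40th percentile of probe sets with 1 symbol. Of the 9 measured genes, 7 passed this filter and 2, Xcr1 and Ccl17, did not. Among the 7, Irf8 alone rose in Cre+ mice at an adjusted p under 0.05, 0 fell, and 6 did not pass; at an unadjusted p under 0.05 there were 2, Irf8 and Irf4, where 20.6% of all tested genes reached that level. Over all tested genes 1.11% rose and 0.266% fell. The Cre+ arrays lay wholly above the Cre- arrays for 5 of the 7 genes, where 34.2% of all tested genes did so, and wholly below them for 1, where 18.7% did. The median difference of the 7 genes was 0.14, against 0.06 over all tested genes. Itgax passed the filter only through its Cre+ arrays, so these counts describe the set and support no direction.

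**Figure D1:**
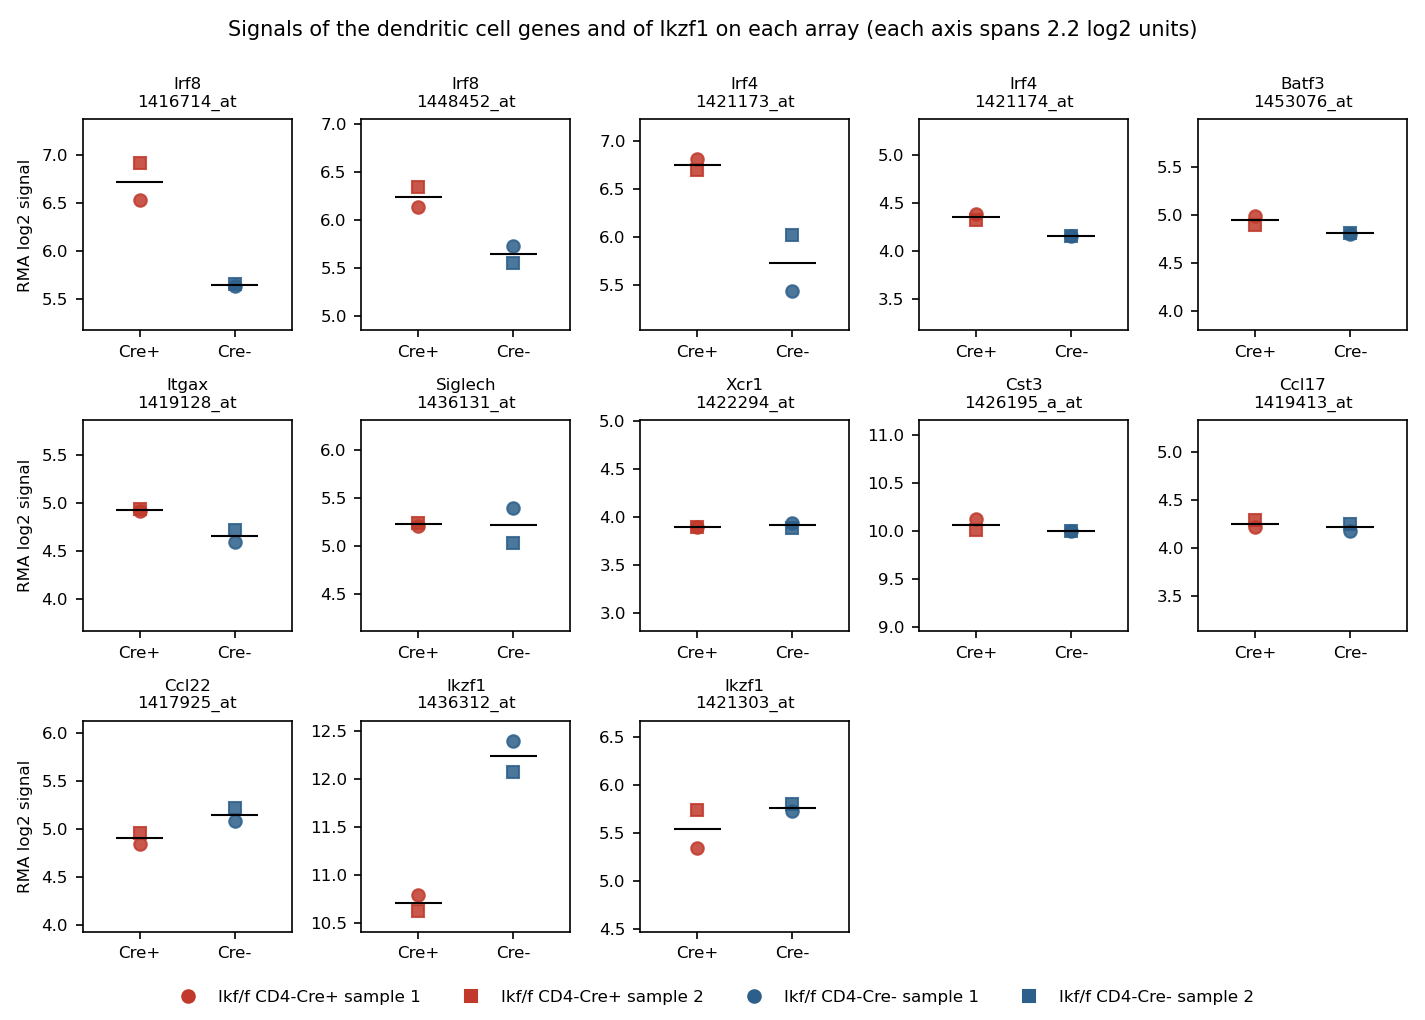
RMA log2 signal (vertical axes, each spanning 2.2 units) of the 11 probe sets of the dendritic cell genes and the 2 of Ikzf1 on each array; circles are sample 1, squares sample 2, black lines group means, with Cre+ at the left of each panel. The Cre+ arrays lie clearly above the Cre- arrays in both Irf8 panels and the brighter Irf4 panel, and clearly below them in the brighter Ikzf1 panel.

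Irf8, an interferon regulatory factor of myeloid and lymphoid cells, was about 2.11-fold higher in Cre+ mice. On the brighter probe set the signal was 6.53 and 6.91 in Cre+ samples 1 and 2, against 5.63 and 5.65 in Cre- samples 1 and 2. Both Cre+ arrays were above both Cre- arrays, the gap of 0.88 between the nearest arrays was wider than the 0.38 between the Cre+ mice, and Cre+ sample 2 was the highest. Group means were 6.72 ± 0.27 in Cre+ and 5.64 ± 0.01 in Cre- mice (SD, n = 2 each), a difference of 1.08 ± 0.16 (SE) with a 95% confidence interval of 0.68 to 1.47. In limma with Benjamini-Hochberg adjustment over 11639 genes the adjusted p was 0.0495, which placed Irf8 at rank 158 by p, among 160 called genes. In bulk RNA, more cells of a type and more RNA per cell cannot be told apart.

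The dimmer Irf8 probe set, annotated to the same sequence record, moved in the same direction by a smaller amount. It read 6.14 and 6.34 in Cre+ samples 1 and 2, against 5.73 and 5.56 in Cre- samples 1 and 2, again without overlap. Its difference was 0.60 ± 0.14 (SE), and it did not pass when each probe set was tested separately (limma adjusted p = 0.100), a setting in which 0.639% of 20967 probe sets rose.

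The call for Irf8 lay at the edge of the threshold, while its direction was the same in each way of processing that gave it a value. Cre+ sample 2, the array highest in Irf8, was also the one with high granulocyte signals. Leaving out 1 array ended the call in each case: the difference was 1.27 without Cre+ sample 1 (limma adjusted p = 0.0860), 0.89 without Cre+ sample 2 (0.117), 1.07 without Cre- sample 1 (0.229) and 1.09 without Cre- sample 2 (0.159). After arrays were centred on their medians, a step that shifted the median of all tested genes to −0.07, against 0.06 without it, Irf8 differed by 0.95 (limma adjusted p = 0.0676).

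**Figure D2:**
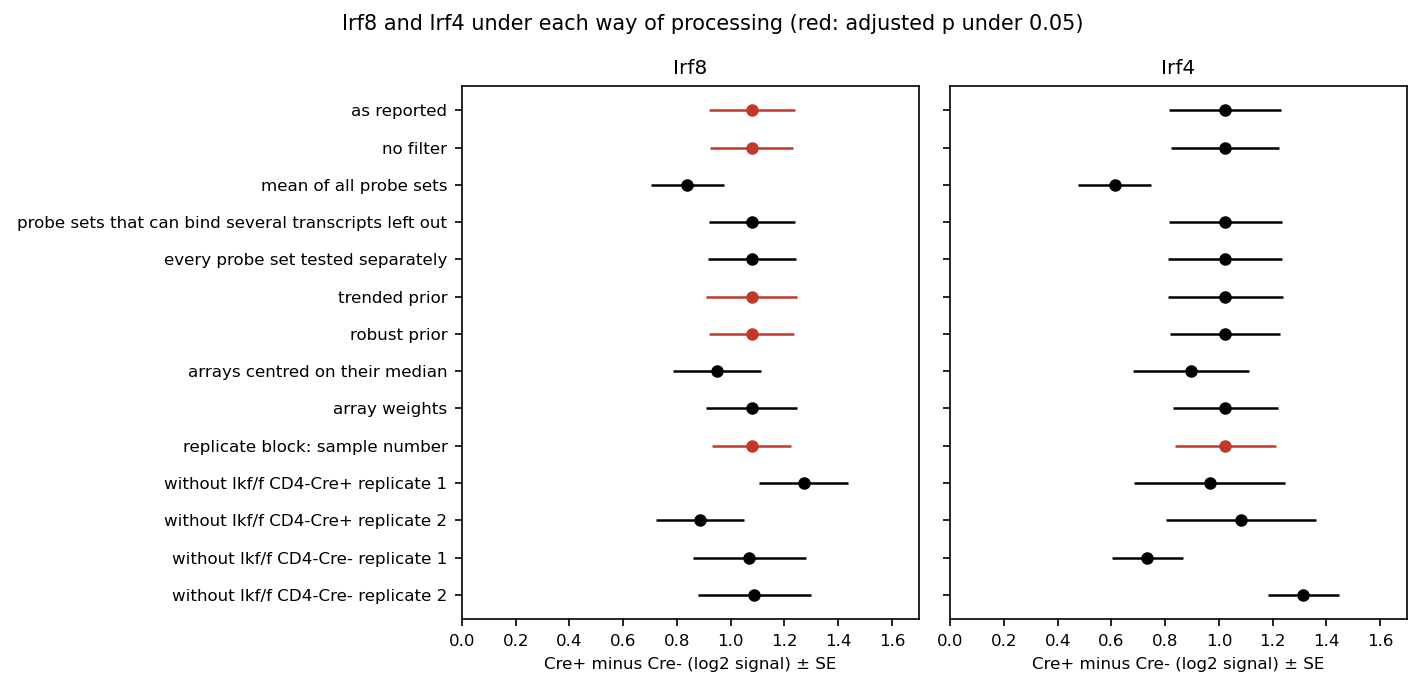
Difference between Cre+ and Cre- mice in log2 signal (horizontal axes, ± SE) for Irf8 at the left and Irf4 at the right under each way of processing named on the vertical axis; red points have an adjusted p under 0.05. All points lie to the right of 0; Irf8 ranges from 0.84 to 1.27 and Irf4 from 0.61 to 1.31, and Irf4 is red with the sample number as a block.

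The letters upstream of the Irf8 and Irf4 starts are shown because these were the members with the largest differences and both belong to the interferon regulatory factor family. The sequences are the 250 bases before the first listed start of each gene, plus strand, from RefSeq on GRCm38.p6: chr8:120736108-120736357 for Irf8 and chr13:30748983-30749232 for Irf4. Capitals mark matches on either strand to any of 4 motifs: TTCNNNGAA, the element of STAT factors; AANNGAAA, a core recognised by interferon regulatory factors; TGGGAA, a core recognised by Ikaros; and TGANTCA, the AP-1 element. The first and second motif can share the letters GAA.
Irf8: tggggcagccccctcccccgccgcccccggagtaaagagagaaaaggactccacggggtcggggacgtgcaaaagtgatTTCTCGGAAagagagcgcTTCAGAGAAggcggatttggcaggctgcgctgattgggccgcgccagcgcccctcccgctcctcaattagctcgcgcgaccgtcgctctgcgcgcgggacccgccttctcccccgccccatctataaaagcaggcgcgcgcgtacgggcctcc
Irf4: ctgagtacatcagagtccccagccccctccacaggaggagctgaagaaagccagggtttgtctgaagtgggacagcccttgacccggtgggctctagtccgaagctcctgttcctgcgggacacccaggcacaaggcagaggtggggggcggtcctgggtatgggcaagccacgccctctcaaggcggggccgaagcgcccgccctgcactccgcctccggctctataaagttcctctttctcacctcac

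The Irf8 window held 2 matches to TTCNNNGAA that did not overlap, at 171 to 163 and 153 to 145 bases before the start, and none to the other motifs. A further listed start of Irf8 held 1 match to TGGGAA and 0 to the other 3 motifs. The Irf4 window held none of the 4. Of 11 windows of the 10 genes, 4 held TTCNNNGAA, 4 held TGGGAA, 1 held TGANTCA and 1 held AANNGAAA. Of all 32851 windows of this length, 7.02% held TTCNNNGAA, 21.6% TGGGAA, 6.75% TGANTCA and 21.3% AANNGAAA. A match describes letters and shows no binding, and a window without one says nothing about the factor.

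Irf4 differed by nearly as much as Irf8 but did not pass. The brighter of its probe sets gave 6.81 and 6.69 in Cre+ samples 1 and 2, against 5.44 and 6.02 in Cre- samples 1 and 2. The groups did not overlap, and the spread lay in the Cre- mice, which were 0.58 apart, where the Cre+ mice were 0.12 apart. The difference was 1.02 ± 0.21 (SE), with a 95% interval of 0.51 to 1.54 and a limma adjusted p of 0.0795. It was 0.73 without Cre- sample 1 and 1.31 without Cre- sample 2. The second Irf4 probe set was dim, at 4.39 and 4.32 in Cre+ arrays and 4.15 and 4.16 in Cre- arrays, and lay under the filter.

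Batf3, the AP-1 family partner of IRF8 in cross-presenting dendritic cells, showed little difference. It read 4.99 and 4.90 in Cre+ samples 1 and 2, against 4.80 and 4.82 in Cre- samples 1 and 2, values just above the filter. The difference of 0.14 ± 0.11 (SE) had an interval of −0.14 to 0.42 (limma adjusted p = 0.551), which stops short of the 1.08 of Irf8, and after centring of the arrays it was 0.01.

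The surface markers were dim and did not pass. Itgax encodes CD11c, the integrin chain used to identify most dendritic cells. It read 4.91 and 4.93 in Cre+ samples 1 and 2, against 4.59 and 4.71 in Cre- samples 1 and 2. The arrays separated by group, but the difference of 0.27 ± 0.12 (SE, interval −0.02 to 0.56) did not pass (limma adjusted p = 0.267). Its mean of 4.79 lay just inside the filter.

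Siglech encodes the sialic acid binding receptor of mouse plasmacytoid dendritic cells. It read 5.21 and 5.24 in Cre+ samples 1 and 2, against 5.40 and 5.03 in Cre- samples 1 and 2. Both Cre+ arrays lay between the Cre- arrays. The difference was 0.01 ± 0.16 (SE, interval −0.38 to 0.40, limma adjusted p = 0.977); after centring of the arrays it became −0.12.

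Xcr1, the chemokine receptor of cross-presenting dendritic cells, read 3.90 on both Cre+ arrays, against 3.94 and 3.89 on Cre- samples 1 and 2. The groups overlapped, all 4 values lay under the filter, and the mean difference was −0.01. With no filter its interval was −0.28 to 0.25.

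The secreted proteins likewise showed no called difference. Cst3 encodes cystatin C, an inhibitor of cysteine proteases that is abundant in dendritic cells but made by many cell types. It was bright, at 10.12 and 10.01 in Cre+ samples 1 and 2, against 10.003 and 9.997 in Cre- samples 1 and 2. The arrays did not overlap, by a margin of only 0.01, and the difference of 0.07 ± 0.11 (SE, interval −0.22 to 0.35, limma adjusted p = 0.788) was −0.06 after centring.

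Ccl22 and Ccl17 encode the ligands of the receptor CCR4. Ccl22 read 4.84 and 4.95 in Cre+ samples 1 and 2, against 5.08 and 5.21 in Cre- samples 1 and 2. It was the only tested member with both Cre+ arrays below both Cre- arrays, and its difference of −0.25 ± 0.12 (SE, interval −0.55 to 0.05) did not pass (limma adjusted p = 0.324). Ccl17 lay under the filter, at 4.23 and 4.29 in Cre+ arrays and 4.18 and 4.26 in Cre- arrays, with overlapping groups and a mean difference of 0.04. Ccr4, their receptor gene, differed by 0.06 ± 0.17 (SE, limma adjusted p = 0.880).

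**Figure D3:**
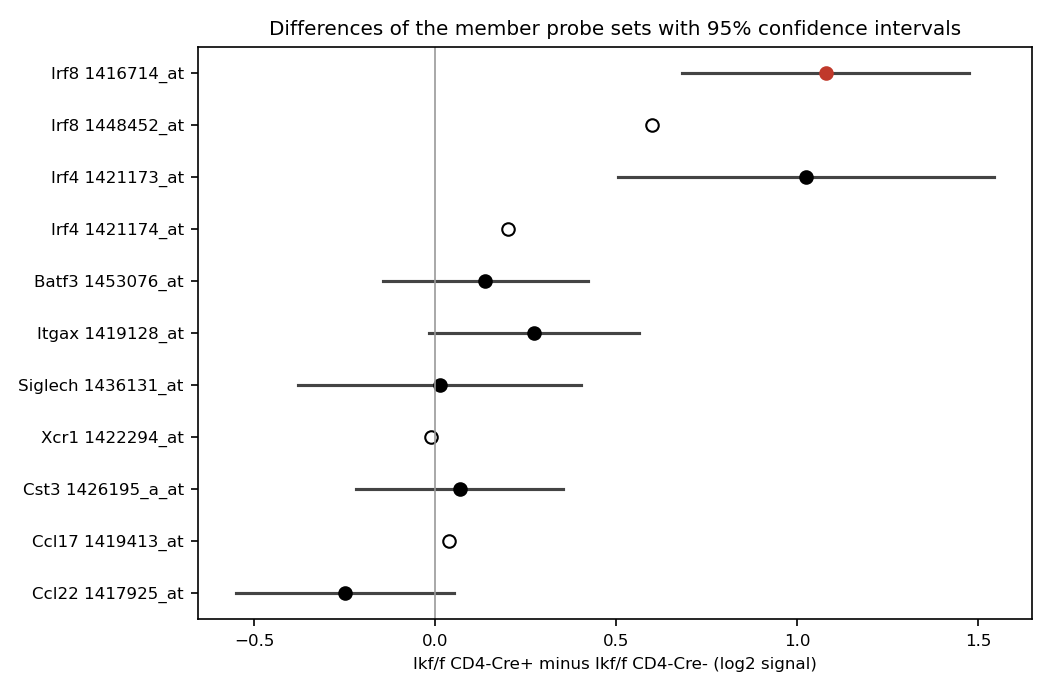
Difference between Cre+ and Cre- mice in log2 signal (horizontal axis) for the 11 probe sets (vertical axis). Filled points are the tested probe set of a gene with its 95% confidence interval, red if called; open points are further or dim probe sets without an interval. The Irf8 and brighter Irf4 points lie at 1.08 and 1.02, while the tested points of the other 5 genes lie between −0.25 and 0.27.

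Among other dendritic cell genes, single members of the lists rose, where over all tested genes 1.11% rose and 0.266% fell. Of 9 further conventional dendritic cell markers that passed the filter, Wdfy4 rose, 0 fell and 8 did not pass, with a list median of 0.10. Wdfy4 encodes a protein needed for cross-presentation in dendritic cells. It read 7.36 and 7.87 in Cre+ samples 1 and 2, against 5.85 and 5.63 in Cre- samples 1 and 2, a difference of 1.87 ± 0.20 (SE, limma adjusted p = 0.0248), while its dim second probe set differed by 0.05. Flt3, the cytokine receptor on which dendritic cell development depends, differed by −0.16 (limma adjusted p = 0.552). Kmo, a tryptophan pathway enzyme, differed by −0.66 ± 0.12 (SE) without passing (limma adjusted p = 0.0667), and passed the filter only through its Cre- arrays. The list median was 0.31 for the 3 genes left at the 60th percentile, 0.04 with no filter and −0.02 without Cre- sample 1.

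Of 7 further dendritic cell transcription factors, 1 rose: Id2, which blocks DNA binding by E proteins, by 2.12 ± 0.22 (SE, limma adjusted p = 0.0248), 0 fell and 6 did not pass; the list median was 0.15, and 0.02 after centring. The other Id2 probe sets differed by 0.24 and 0.31. Spi1, which encodes the myeloid factor PU.1, a DNA-binding partner of IRF8, differed by 0.15 (limma adjusted p = 0.522). Zbtb46, a factor restricted to conventional dendritic cells among immune cells, differed by −0.14 (limma adjusted p = 0.579). The calls of Id2 and Wdfy4 were both lost without either Cre- array and when probe sets were averaged per gene.

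Of 10 plasmacytoid dendritic cell markers 0 passed in limma, and the median was 0.10. An unadjusted p under 0.05 was reached by 5, where 20.6% of all tested genes reached it. With averaged probe sets, or with each probe set tested separately, 1 of the list was called. The smallest p belonged to Klk1, a kallikrein protease gene, at 0.51 ± 0.11 (SE, limma adjusted p = 0.0967). Bst2, an interferon-inducible surface protein, differed by 1.34 ± 0.35 (SE, limma adjusted p = 0.125). Irf7, the amplifier of interferon production, differed by 0.61 ± 0.15 (limma adjusted p = 0.116). Tcf4 differed by 0.45 ± 0.14 (SE, limma adjusted p = 0.160), with both Cre+ arrays above both Cre- arrays. In the opposite direction Atp1b1, a sodium pump subunit, differed by −0.61 ± 0.17 (SE, limma adjusted p = 0.140), Ly6d by −0.39, Pacsin1 by −0.20 and Ccr9 by −0.18. The list median was −0.18 with each probe set tested separately, 0.01 without Cre+ sample 1 and 0.19 without Cre+ sample 2. Of 6 dendritic cell maturation genes 0 passed in limma, and the median was 0.10. An unadjusted p under 0.05 was reached by 1, against the same 20.6% of all tested genes. Marcksl1 differed by 0.48 (limma adjusted p = 0.236) and Cd40 by 0.11. Fscn1, the actin bundling protein of mature dendritic cells, differed by 0.15 and Ccr7, their homing receptor, by 0.04. The maturation median was 0.27 without Cre+ sample 1 and −0.05 without Cre+ sample 2. The medians of the plasmacytoid, maturation and further conventional marker lists became −0.03 after centring of the arrays.

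MHC class II genes, which dendritic cells use to present antigen, had a median of 0.51 over 10 kept genes. H2-Ab1 rose by 1.58 ± 0.22 (SE, limma adjusted p = 0.0453), 0 fell and 9 did not pass. Over all tested genes 1.11% rose and 0.266% fell. The differences of H2-Aa (2.25) and H2-Eb1 (1.68) did not pass. Ciita, the transactivator of this gene group, read 4.82 and 4.80 in Cre+ samples 1 and 2, against 4.89 and 4.79 in Cre- samples 1 and 2. It differed by −0.03 (limma adjusted p = 0.917), but these values lay just above the filter of 4.76, which limits what they can show. The other H2-Ab1 probe sets differed by 0.90 and 0.52. With probe sets that can bind several transcripts left out, the median of the 6 remaining genes was 0.18 and 0 passed in limma; with probe sets averaged per gene it was 0.87 and 4 passed, and for the 6 genes left at the 60th percentile it was 1.21. The H2-Ab1 call was lost after centring and without Cre+ sample 1, Cre+ sample 2 or Cre- sample 2, where 0 MHC class II genes passed in limma, whereas 5 did with the sample number as a block.

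Irf8 and Irf4 belong to the interferon regulatory factors. For 4 of the 6 others kept both Cre+ arrays lay above both Cre- arrays, where 34.2% of all tested genes did so. For 1, Irf3, both lay below, where 18.7% did. Of the 6, Irf9, the DNA-binding subunit of the type I interferon response complex, rose by 1.098 ± 0.15 (SE, limma adjusted p = 0.0443), 0 fell and 5 did not pass. Over all tested genes 1.11% rose and 0.266% fell. Irf1 differed by 0.77 ± 0.15 (limma adjusted p = 0.0750) and Irf2 by 0.41 (0.135), whereas Irf3 differed by −0.33 (0.220) and Irf5 by −0.03. The family median was 0.51, but its sign depended on the probe sets: it was −0.17 with each probe set tested separately and −0.44 for the 2 genes left when probe sets that can bind several transcripts were removed. The Irf9 call was lost in both of these settings, after centring and without any 1 array. Of 11 kept interferon response genes 6 rose and 0 fell, where 1.11% of all tested genes rose and 0.266% fell. The list median was 1.65. The 6 were Rtp4 (2.71 ± 0.13, SE), Ifit1 (2.63 ± 0.16), Usp18 (2.49 ± 0.15), Ifih1 (2.01), Xaf1 (1.72, with its other probe set at −2.49) and Oas1a (1.65). Ifit1 averaged 4.55 in Cre- arrays and so passed the filter only through its Cre+ arrays. The list count and median therefore describe the set and support no direction. The list median was 0.70 with probe sets averaged per gene, where 5 genes were called, and 0.65 with each probe set tested separately, where 6 were. Without Cre- sample 1 or Cre- sample 2 1 and 0 of the list were called.

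Among 9 AP-1 family genes related to Batf3, 0 passed in limma. An unadjusted p under 0.05 was reached by 1, where 20.6% of all tested genes reached it. This was Jdp2, at 0.75 ± 0.16 (SE, limma adjusted p = 0.0853). Batf differed by −0.33 and Jund by 0.36, and the median was 0.08, turning to −0.05 after centring and −0.09 without Cre+ sample 2. Of 9 other chemokines 0 passed in limma and 2 had an unadjusted p under 0.05, a number near the 20.6% of all tested genes. The 2 were Ccl5, a chemokine of activated lymphocytes, at 0.62 and Ccl27a at −0.94. Ccl28 differed by 0.26. Itgb2, the integrin chain that pairs with CD11c, differed by −0.32 (limma adjusted p = 0.261) and Itgal by −0.28. Ifnar2, a chain of the type I interferon receptor, differed by 0.55 and its partner Ifnar1 by −0.29, and neither passed. Cstb, the only kept gene of the list of other cystatins, differed by 0.46 ± 0.12 (SE, limma adjusted p = 0.121).

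Macrophages and B cells also express Irf8. Of 11 kept macrophage and monocyte markers 2 rose, 0 fell and 9 did not pass. The 2 were the protease gene Ctss (2.98 ± 0.29, SE) and the lysozyme gene Lyz2 (1.85 ± 0.17). Over all tested genes 1.11% rose and 0.266% fell. The median of the 11 markers was 0.49. Of these markers 1 was called without Cre+ sample 1, Cre+ sample 2 or Cre- sample 1, and 0 without Cre- sample 2. With no filter, with probe sets that can bind several transcripts left out, or with each probe set tested separately, 3 of the list were called. There were 4 with averaged probe sets, a trended prior or a robust prior, and 5 with the sample number as a block. The list median was 0.27 without Cre+ sample 1, 0.19 with no filter and 1.85 for the 3 genes left at the 60th percentile. The mean signal of this list was 6.13 and 6.05 on Cre+ arrays, against 5.31 on both Cre- arrays. C1qb (0.49, the list median) and C1qc (0.95) averaged 4.71 and 4.58 in Cre- arrays. Both were kept only through their Cre+ arrays, so the list median and mean signals support no direction. C1qa, a complement subunit, differed by 1.11 (limma adjusted p = 0.0560) and the adaptor Tyrobp by 0.82 (0.0502), both just short of passing. Csf1r, Adgre1 and Fcgr1 of the same list, named after their values were seen, differed by 0.19, −0.03 and 0.00. Their signals were low, averaging 6.02, 5.45 and 5.18 in Cre+ arrays and 5.82, 5.48 and 5.18 in Cre- arrays. Of 3 kept B cell markers 0 passed in limma. An unadjusted p under 0.05 was reached by 1, where 20.6% of all tested genes reached it. This was Ms4a1 at 0.71, which passed the filter only through its Cre+ arrays. Pax5 differed by 0.18 and Cd79b by −0.08. The mean signal of the B cell list was 6.19 and 6.34 on Cre+ arrays, against 6.004 and 5.983 on Cre- arrays. Of 5 kept granulocyte markers 0 passed in limma at either level. S100a8 and Ltf (1.05) were kept only through Cre+ sample 2, at 8.38 and 6.50. On Cre+ sample 1 they read 4.52 and 4.58, under the filter like the Cre- arrays. The median of the 5 markers was 1.05, and it was 2.01 without Cre+ sample 1 and −0.08 without Cre+ sample 2. Their mean signal was 4.81 and 6.85 on Cre+ samples 1 and 2, against 4.88 and 4.72 on Cre- samples 1 and 2. The part of such cells in the Irf8 difference was not tested.

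**Figure D4:**
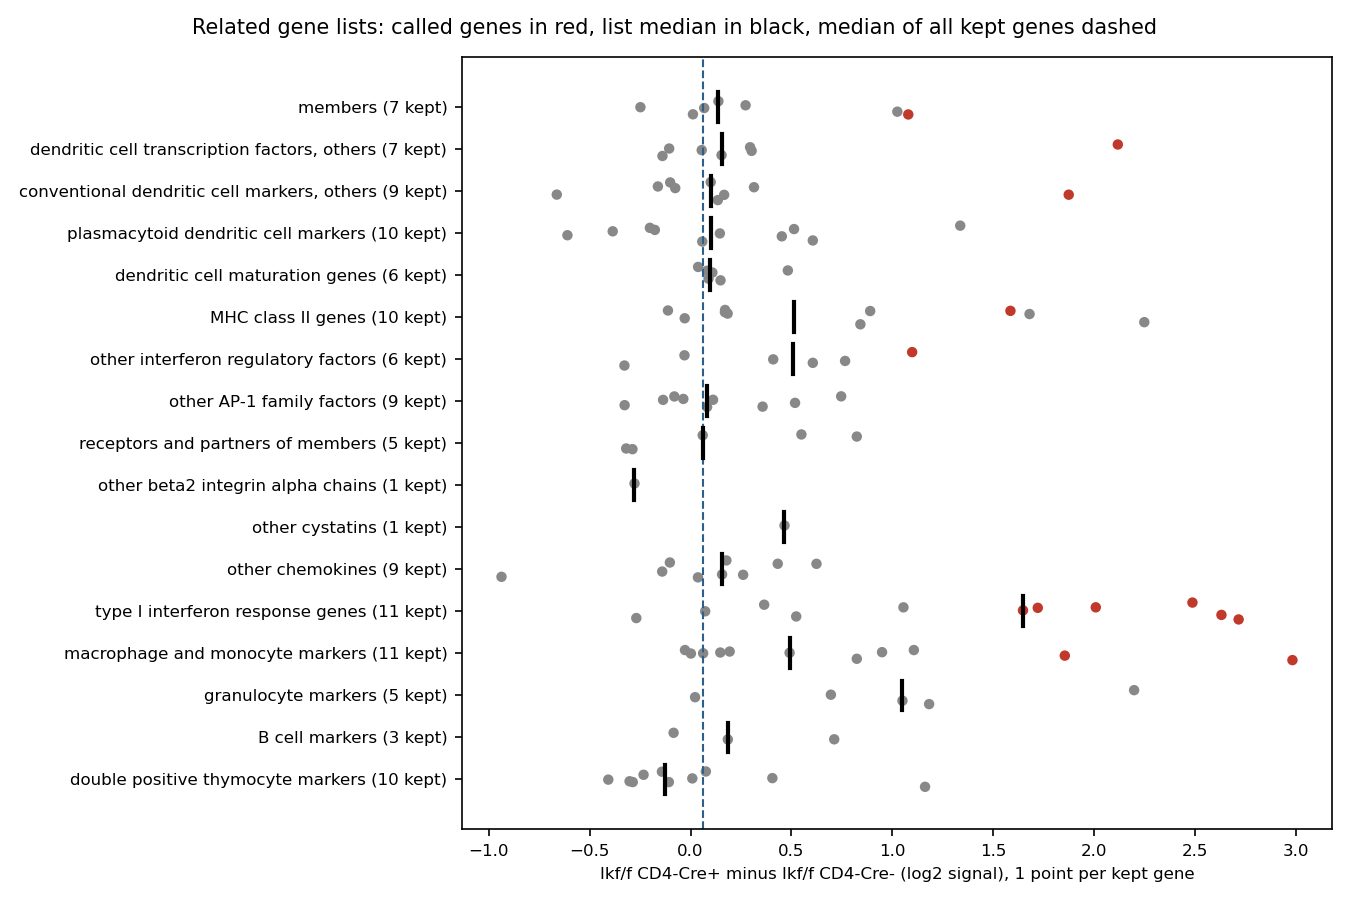
Difference between Cre+ and Cre- mice in log2 signal (horizontal axis) of each kept gene in the dendritic cell set (members, top) and the related lists (vertical axis); red points passed the limma test, black bars are list medians and the dashed line is the median of all tested genes, 0.06. The bars of the conventional, plasmacytoid and maturation lists sit at 0.10. Those of the MHC class II, interferon regulatory factor and interferon response lists sit at 0.51, 0.51 and 1.65. The macrophage bar sits at 0.49 and the granulocyte bar at 1.05 (−0.08 without Cre+ sample 2). With each probe set tested separately the median of the interferon regulatory factors is −0.17 and that of the response genes 0.65.

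The 8 genes whose pattern over the 4 arrays lay nearest to Irf8 were taken from all tested genes. Dendritic cell markers are few among all tested genes, so their absence from 8 genes says nothing about cell type. Nearness was the Euclidean distance between signals after subtracting the mean of each gene, over 4 arrays and 11639 genes. In order of distance the nearest genes were Cacng4 (0.08), B2m (0.10), Tns3 (0.12), Psmb9 (0.13), Pdgfrb (0.14), Pomgnt2 (0.15), Il7r (0.15) and Slit3 (0.16). B2m, the light chain of MHC class I, read 11.84 and 12.24 in Cre+ arrays, against 11.06 and 11.05 in Cre- arrays, and Psmb9, an immunoproteasome subunit, read 9.94 and 10.38 against 9.23 and 9.14. Like Irf8, each was highest on Cre+ sample 2, a pattern that selection by nearness favours. Il7r, the interleukin 7 receptor, read 5.74 and 5.93 in Cre+ arrays, against 4.68 and 4.75 in Cre- arrays, and so passed the filter only through its Cre+ arrays. These genes share the same 4 arrays with Irf8, so the likeness is a description.

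**Figure D5:**
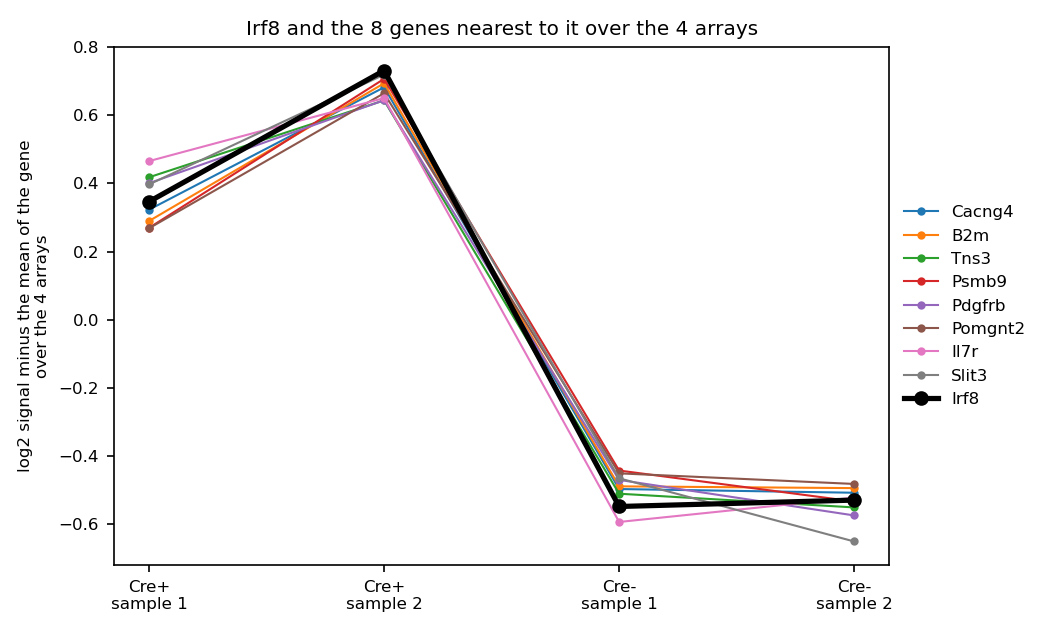
Log2 signal minus the mean of each gene over the 4 arrays (vertical axis) for Irf8 (thick black line) and the 8 genes nearest to it, by array (horizontal axis). All 9 lines are high on the Cre+ arrays, highest on Cre+ sample 2, and low on both Cre- arrays.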

How the data were processed

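The deposited values are log2 signals, 1 per probe set and array, made by the authors with RMA (background subtraction, normalization between arrays and summary over probes), per the submitters' processing notes; no version and no genome build were stated, and base 2 was taken from the scale RMA returns. Per the labels' protocols, total RNA was labelled in a 2-cycle assay. The arrays give no counts, so precision is limited by 2 arrays per group. Of 45037 probe sets 34945 had 1 gene symbol in the platform annotation, 932 several and 9160 none.

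Each gene was represented by its brightest single-symbol probe set, genes below the 40th percentile (4.76) were left out, and limma 3.58.1 (lmFit, eBayes, R 4.3.3) compared Cre+ with Cre- arrays, two-sided, with Benjamini-Hochberg adjustment over 11639 genes. The procedure was also tested on simulated data. An exact permutation test on 1 gene could not reach a p under 0.333 here. Named genes were all members, Ikzf1, the called genes of each related list or else up to 3 with the smallest p, the 8 nearest to Irf8, and the sex-linked genes; a few further list genes (Flt3, Spi1, Zbtb46, Ciita, Ccr7, Ccr4, Irf5, Cd3e, Atp1b1 and others) were chosen after their values were seen. The members and lists were chosen with earlier results of these data known. Some listed genes had no single-symbol probe set or lay under the filter. Alternatives varied the filter, probe set choice, prior, scaling, weights, a block for the sample number, and each array left out. Figures used matplotlib 3.10.9.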

Additional observations from a re-analysis of the deposited data

How the results depend on the processing

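Irf8 kept its direction in each setting that gave it a value (the filter at the 60th percentile removed it), and passed with no filter, a trended or robust prior and the block. It did not pass with the mean of its probe sets (0.84, limma adjusted p = 0.0507), nor, at an unchanged 1.08, with only probe sets specific to a single transcript (0.0554), with every probe set tested separately (0.0565) or with array weights (0.0573), nor at 0.95 after centring (0.0676). With 1 array left out its difference ranged from 0.89 to 1.27. The number of members called was 0 in each of these settings, with 1 array left out (0 to 0), and with the stricter filter. All genes called numbered 90 at that filter, 104 with specific probe sets only, 245 with the robust prior, and 3 to 99 with 1 array left out, against 160 as reported. Of the 160 calls, 129 were higher (80.6%); after centring 75 of 123 were (61.0%). Siglech turned to −0.12 after centring and ranged from −0.17 to 0.20 with 1 array left out, being −0.0031 without Cre+ sample 2, and Cst3 turned to −0.061 after centring. The cause of these shifts was not tested. With the sample number as a replicate block, 821 genes and 2 members (Irf8, adjusted p = 0.0144, and Irf4, 0.0272) were called; deviations of same-numbered arrays correlated at 0.18 across genes, and the labels give no pairing. Signals near or under the filter limit what Batf3, Itgax, Xcr1, Ccl17 and Ciita can show.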

Other observations

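The genes that lie beside Irf8 on the chromosome, by the RefSeq gene order, differed by small amounts. Cox4i1 and Emc8 before it differed by 0.14 and 0.02, and Foxf1 and Mthfsd after it by −0.07 and −0.02, and none passed in limma (adjusted p from 0.581 to 0.954). Beside Irf4, Dusp22 differed by 0.32 (limma adjusted p = 0.276) and Exoc2 by −0.09. Ccl22, Cx3cl1 and Ccl17 are consecutive chemokine genes; Cx3cl1 differed by −0.10 (limma adjusted p = 0.701).

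Clec9a itself was not measured by a single-symbol probe set, but Clec7a, the beta-glucan receptor gene of myeloid cells that lies close by, had one of the larger differences around the members. This gene was singled out after its value was seen. It read 7.65 and 6.25 in Cre+ samples 1 and 2, against 4.44 and 4.94 in Cre- samples 1 and 2. The groups did not overlap, and the Cre+ mice were far apart. The difference of 2.26 ± 0.46 (SE) did not pass (limma adjusted p = 0.0795). The Cre- mean lay under the filter, so Clec7a was kept only through its Cre+ arrays.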
